A study of Mus musculus with 16 samples.

Results

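The guanylate-binding proteins of the mouse, Gbp2 to Gbp11, are a family of large GTPases, and their mRNA levels were followed here in activated macrophages treated with a gamma-secretase inhibitor (GSI). The members were the rows of the count table that carried 1 of the 10 gene symbols Gbp2, Gbp3, Gbp4, Gbp5, Gbp6, Gbp7, Gbp8, Gbp9, Gbp10 and Gbp11. These symbols stood on 11 of the 47069 rows, since Gbp6 was given to 2 Ensembl IDs. The second Gbp6 row (ENSMUSG00000079362) held 0 counts in 3 libraries and 2 counts in GSI replicate 2, and it was not tested. The other 10 rows, 1 for each symbol, were among the 13211 genes tested. Gbp2b, a family gene that is also called Gbp1 and does not carry a member's symbol, lies between Gbp3 and Gbp2 and is described beside them.

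The cells were bone marrow-derived macrophages (BMMs) of wild type C57BL/6 mice aged 8 to 10 weeks, harvested on day 7 of culture. All of them were primed overnight with 10 ng/mL IFNγ and then activated for 1 hr with 100 ng/mL Salmonella LPS and with ovalbumin opsonized by IgG as immune complexes (LPS/ICs). The GSI group received 25 μM DAPT, which blocks the cleavage that releases the intracellular part of Notch receptors, and the DMSO group received the vehicle, both from the night before activation. Each group had 2 replicates, and the 4 deposited columns of a replicate were summed. No group without IFNγ or without LPS/ICs was analysed, so the induction of the family was not measured, and only its level with and without GSI could be compared. The drug blocks gamma-secretase as such and not Notch alone, and the design cannot tell these apart.

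Guanylate-binding proteins belong to the dynamin superfamily and hydrolyse GTP. They are among the most strongly IFNγ-induced genes of macrophages, through transcription factors, IRF1 among them, that act on interferon-stimulated response elements (ISREs) and gamma-activated sites (GAS). Some members carry a C-terminal motif to which a lipid is attached, and the proteins gather on vacuoles that hold microbes or on bacteria themselves, where they open the vacuole and help microbial products to reach inflammasomes.

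In the mouse genome (GRCm38) the family forms 2 clusters. On the plus strand of chromosome 3 lie Gbp5 (chr3:142493978-142522344), Gbp7 (chr3:142530342-142550149), Gbp3 (chr3:142560026-142573209), Gbp2b (chr3:142594847-142619179) and Gbp2 (chr3:142620602-142638008). On the minus strand of chromosome 5 lie Gbp8 (chr5:105014150-105139540), Gbp9 (chr5:105077630-105139539), Gbp4 (chr5:105115767-105139586), Gbp10 (chr5:105215699-105239533), Gbp6 (chr5:105270702-105293698) and Gbp11 (chr5:105323042-105346472). The clusters span 175.1 kb and 332.3 kb, the former with the pseudogene Gbp2-ps at its end, which held 0 counts in all 4 libraries. Gbp11 is annotated as a polymorphic pseudogene and the other members as protein-coding.

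The promoter sequences below are shown because they hold letters that match the core of the ISRE, an element through which interferons act. RefSeq windows of 250 bases before to 50 after the start site (GRCm38.p6) were at hand for Gbp5, Gbp7, Gbp3, Gbp2b and Gbp2, 6 windows in all with 2 start sites for Gbp3. There was no entry for Gbp4, Gbp6, Gbp8, Gbp9, Gbp10 and Gbp11. Each window was searched on both strands for the ISRE core, taken as GAAA, any 2 bases and GAAA again, which on the other strand reads TTTC, 2 bases and TTTC. It was found in 5 of the 6 windows and for 5 of 5 genes, against 3.44% of all 32851 windows. In each case it lay before the start and read TTTC, 2 bases and TTTC along the gene. The stretches around it are printed below on the plus strand, with the match in capitals.
Gbp5, chr3:142496759-142496788: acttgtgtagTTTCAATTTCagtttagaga
Gbp7, chr3:142530273-142530302: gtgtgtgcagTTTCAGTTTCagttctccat
Gbp3, chr3:142559989-142560018: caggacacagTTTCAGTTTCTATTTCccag
Gbp2b, chr3:142594700-142594729: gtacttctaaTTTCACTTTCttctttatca
Gbp2, chr3:142620594-142620623: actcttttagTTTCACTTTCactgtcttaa

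Counted from the RefSeq start, the first base of the match lay at -53 in Gbp7, -45 in Gbp3, -59 in Gbp2, -137 in Gbp2b and -165 in Gbp5, as the plot of motif matches shows. The capitals of Gbp3 cover 2 overlapping matches. By the GENCODE M21 annotation the matches of Gbp7, Gbp3 and Gbp2b lie outside any gene, that of Gbp5 in an intron of an upstream transcript form of Gbp5, and that of Gbp2 in its first exon, because the GENCODE model begins before the RefSeq start. The GAS letters TTCNNNGAA were found in Gbp5 and Gbp7 (2 of 5 genes, 8.3% of all windows). The NF-κB letters, taken as GGGA, any 4 bases and CC, were found in Gbp5 and Gbp2 (2 of 5 genes, 20.7% of all windows). TGGGAA, the letters bound by RBPJ, the DNA-binding partner of cleaved Notch, were found in Gbp5, Gbp7 and Gbp3 (3 of 5 genes, 25.6% of all windows). The match in Gbp3 overlaps the second ISRE core, and both matches in Gbp5 overlap other motifs, 1 a GAS and 1 an NF-κB site. The window of Gbp2b held the ISRE core and no match to the other 3 motifs. A match to a few letters is a description of the sequence and not of a bound site.

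**Figure D1:**
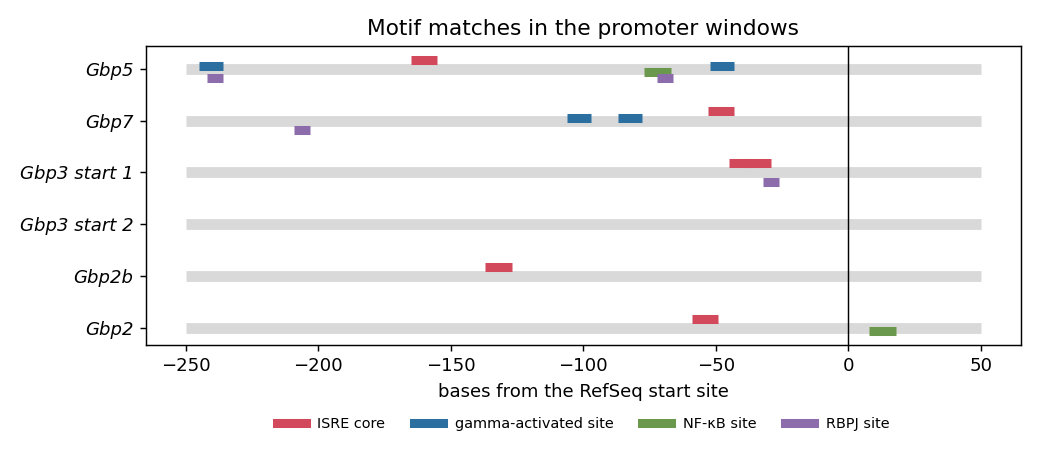
Position of motif matches in the promoter windows of 5 guanylate-binding protein genes, in bases from the RefSeq start site (vertical line); each grey bar is 1 window of 250 bases before to 50 after the start, and colours mark the 4 motifs. All windows but that of the second Gbp3 start hold an ISRE core before the start, between -165 and -30, and the Gbp2b window holds nothing else.

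The DMSO libraries held 42694655 and 56932059 counts, replicate 1 first, and the GSI libraries 48483661 and 49511733, the order used for all values below. Levels are CPM, counts per 1000000 counts of a library scaled by TMM factors of 0.997 to 1.01, and 3 counts in a library corresponded to 0.0527 to 0.0703 CPM. These floors and the intervals below do not cover more than counting error and the spread between the replicates. The labels do not say whether the replicates were separate cultures or animals, so that p-values measure the spread between these samples, which may be technical. The 4 columns of a replicate differed by about the sampling noise, with a chi-square per degree of freedom of 1.01 to 1.03. The 8 macrophage marker symbols were all tested on 9 rows and summed to 10428 and 10721 CPM with DMSO and 8402 and 9185 CPM with GSI, with 2 rows higher and 6 lower in GSI. The summed markers of T and NK cells, B cells, neutrophils and fibroblasts stayed at or below 1.16 CPM in each library, with Cd3g, Ncr1, Elane and Col3a1 at 0, those of dendritic cells lay between 3.68 and 5.25 CPM with Siglech at 0, and those of erythroid cells were all at 0. The part of the fall in macrophage markers in the results below was not tested. In bulk RNA, fewer cells that express a gene and less RNA per cell cannot be told apart.

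The family was abundant, and Gbp2 made up most of it. The 10 tested members took 1.36% of all counts in both DMSO libraries and 1.40% and 1.33% in GSI replicates 1 and 2. Gbp2, which defends macrophages against Toxoplasma gondii and contributes to inflammasome activation by cytosolic bacteria, held 55.6% and 55.2% of the members' counts with DMSO and 53.3% and 52.3% with GSI. Gbp4 held 13.8% to 15.6% of them, Gbp5 12.7% to 13.9% and Gbp10 0.190% to 0.292%. Shares taken per kilobase of merged exons were different. As means of the 4 libraries they were 71.8% for Gbp2, 7.67% for Gbp3, 6.60% for Gbp5 and 6.56% for Gbp4.

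Levels between genes were compared as CPM per kilobase of merged exons. In DMSO, Gbp2 stood at 2978 ± 8.19 CPM per kb (SD, n = 2), 10.2-fold above the next member and at rank 8 of 13165 genes over the 4 libraries. It was followed by Gbp3 at 293 ± 9.46, Gbp4 at 263 ± 21.4 and Gbp5 at 263 ± 4.47 CPM per kb, of which Gbp4 and Gbp5 could not be put in order because their libraries overlapped. The next members down lay close together, Gbp7 at 72.8 ± 6.38, Gbp9 at 65.1 ± 1.47, Gbp6 at 59.9 ± 1.13 and Gbp8 at 52.6 ± 1.98 CPM per kb, with no overlap between neighbours. The lowest were Gbp11 at 23.6 ± 0.146 and Gbp10 at 6.79 ± 0.145 CPM per kb, ranks 1658 and 4136 of all genes.

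With GSI the order of the upper and lower ends was kept, and that of the middle was not. Gbp2 stood at 2868 ± 139 CPM per kb, 8.68-fold above Gbp3 at 331 ± 8.06. Gbp5 at 274 ± 26.4 and Gbp4 at 271 ± 9.71 CPM per kb again overlapped. Gbp6, which with DMSO was below Gbp7 and Gbp9, stood at 78.0 ± 6.15 CPM per kb beside Gbp7 at 77.5 ± 9.58, and these overlapped. The place of Gbp6 in both groups depends on the exon length used, as described with its values. Gbp8 at 60.5 ± 2.64 was above Gbp9 at 57.3 ± 1.14 CPM per kb, the reverse of their order with DMSO.

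**Figure D2:**
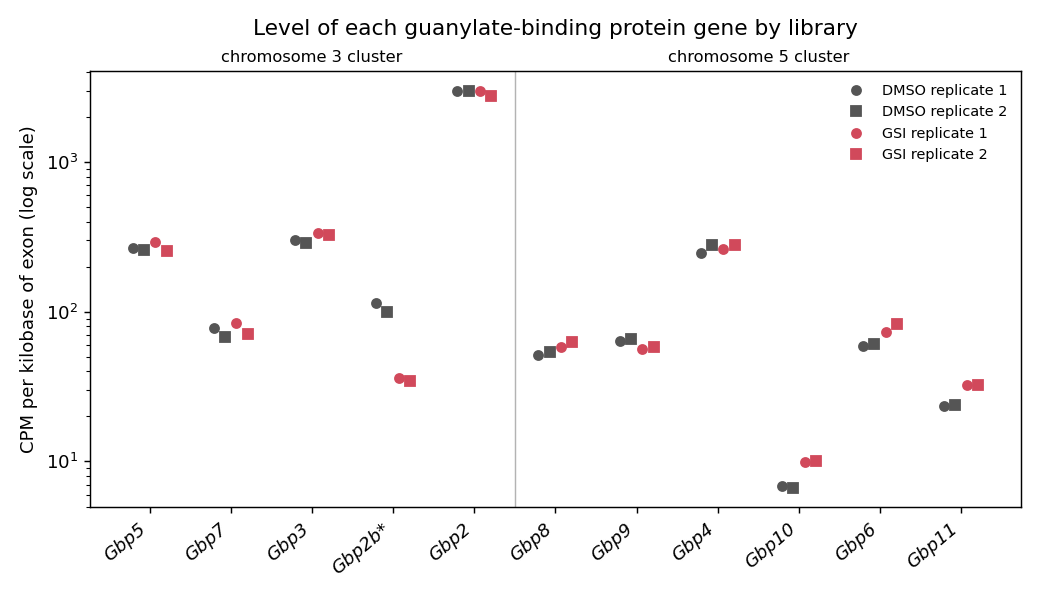
Level of each family gene in each library in CPM per kilobase of exon (log scale), in genome order; circles are replicate 1, squares replicate 2, grey DMSO and red GSI, and the asterisk marks Gbp2b, which is not a member. Gbp2 lies far above the other genes in every library, and the red symbols of Gbp2b lie far below the grey ones.

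The question the design poses is how the transcripts of LPS/IC-activated macrophages differ when gamma-secretase is blocked. For the guanylate-binding proteins the differences were small and went both ways. By the quasi-likelihood test of edgeR, with p-values adjusted after Benjamini and Hochberg over all genes and a call at an FDR under 0.05, 4 of the 10 tested members rose with GSI (Gbp6, Gbp8, Gbp10 and Gbp11), 1 fell (Gbp9) and 5 did not pass (Gbp2, Gbp3, Gbp4, Gbp5 and Gbp7). Of all 13211 genes tested, 19.0% rose, 21.9% fell and 40.8% changed either way. The members' log2 fold changes ran from -0.19 to 0.56 with a median of 0.13, against a median of 0.01 over all genes tested. None of the 10 members passed the study's fold threshold, an absolute log2 fold change above 1.5, which 2.91% of all genes passed together with the FDR. The replicates of the groups did not overlap in 7 of the 10 members, close to the 70.6% of all genes.

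The 3 members with the largest increases, Gbp10, Gbp6 and Gbp11, are next to each other on chromosome 5. Gbp10, which takes part in the defence of macrophages against intracellular bacteria, was at 26.7 and 25.9 CPM with DMSO and at 38.4 and 38.9 CPM with GSI. Both GSI libraries were above both DMSO libraries, and the replicates of each group were within 1 CPM of each other. The log2 fold change was 0.56 (95% interval 0.40 to 0.72), a 1.47-fold increase (FDR = 6.71e-06). It stayed between 0.53 and 0.58, and was called, when each library was left out in turn.

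Gbp11 showed the same direction. It was at 63.2 and 63.7 CPM with DMSO and at 86.7 and 87.2 CPM with GSI. The groups were clearly apart, with the closest replicates of the family relative to their difference. This was a log2 fold change of 0.45 (0.31 to 0.60), or a 1.37-fold increase (FDR = 2.65e-05), and it stayed between 0.45 and 0.46 without any 1 library.

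Gbp6, also known from defence against intracellular bacteria, was at 352 and 361 CPM with DMSO and at 438 and 490 CPM with GSI. The groups did not overlap, and GSI replicate 2 was the highest library. With a log2 fold change of 0.38 (0.23 to 0.54), Gbp6 showed a 1.30-fold increase (FDR = 3.52e-04). It was lowest, at 0.30, without GSI replicate 2 and highest, at 0.46, without GSI replicate 1, and it was called in each case.

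The counts of Gbp6 and Gbp10 are uncertain as to their gene. In GENCODE M21 the ID of the second Gbp6 row is a gene named Gm43302 that runs across both loci, and 3518 of its 4310 exon bases are also exon bases of Gbp10 or Gbp6. Of the exon bases of Gbp10, 1792 of 3873 are shared with it, and of those of Gbp6, 1726 of 5954. Only 22.2% of all 75-base stretches of the Gbp10 transcripts and 32.7% of those of Gbp6 occur in no other gene, against 88.7% to 99.4% for the other members, and with Gm43302 set aside 32.8% and 57.3%. How reads in shared exons were assigned is not given in the sources used here. What this did to the levels and fold changes of Gbp10 and Gbp6 was not tested. Per kilobase of exon bases not shared with another gene of their strand, a measure chosen after the data were seen, the mean of the 4 libraries was 15.6 CPM per kb in place of 8.39 for Gbp10 and 97.1 in place of 68.9 for Gbp6. On that scale the DMSO libraries of Gbp6, at 83.2 and 85.4 CPM per kb, fell between those of Gbp7 at 87.3 and 77.1, so that these genes could not be put in order. They lay above those of Gbp9 at 64.8 and 66.9 CPM per kb, the reverse of the order by all exon bases. With GSI the libraries of Gbp6, from 103.7 to 115.9 CPM per kb, lay above those of Gbp7, from 79.76 to 95.05, whereas by all exon bases they overlapped. The fold changes do not depend on the length used, but they can depend on how shared reads were assigned. Whether the increases of Gbp10 and Gbp6 are separate changes was not tested.

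**Figure D3:**
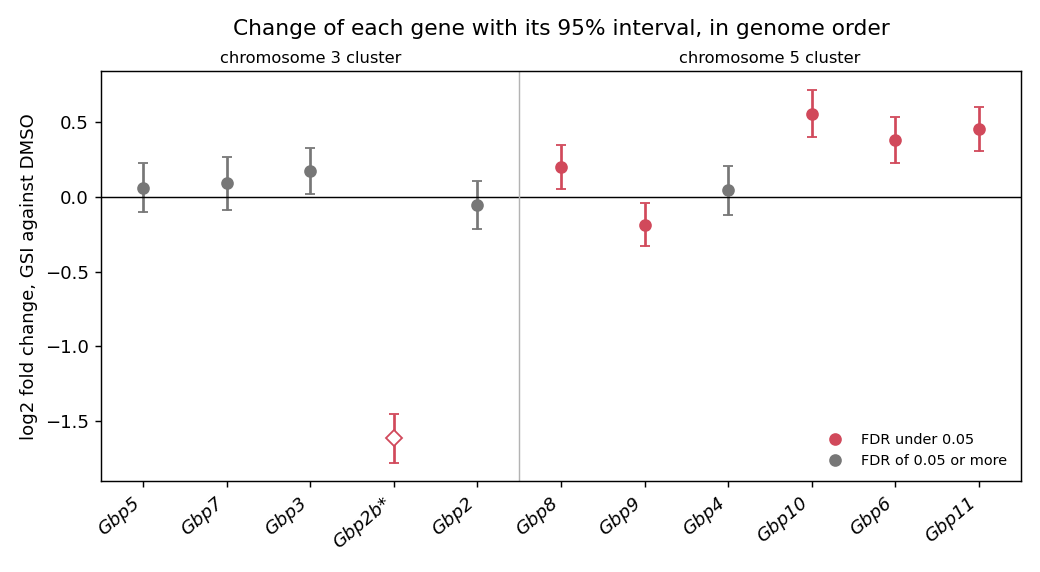
Log2 fold change of each family gene, GSI against DMSO, in genome order on each chromosome; points are edgeR estimates from 2 libraries per group, bars their 95% intervals, red points have an FDR under 0.05 and grey points do not, and the open diamond with the asterisk is Gbp2b. The 3 genes at the right, Gbp10, Gbp6 and Gbp11, lie highest at 0.38 to 0.56, and Gbp2b lies alone at -1.62.

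At the other end of the chromosome 5 cluster, Gbp8 and Gbp9 moved in opposite directions by smaller amounts. Gbp8 was at 176 and 186 CPM with DMSO and at 202 and 215 CPM with GSI, with no overlap between the groups. Its log2 fold change was 0.20 (0.05 to 0.35, FDR = 0.0273), and it was no longer called without DMSO replicate 1 (FDR = 0.219), DMSO replicate 2 (FDR = 0.0572) or GSI replicate 2 (FDR = 0.132). Gbp9 was at 332 and 342 CPM with DMSO and at 292 and 300.3 CPM with GSI, so that both GSI libraries were below both DMSO libraries. Its log2 fold change was -0.19 (-0.33 to -0.04, FDR = 0.0375), and it was no longer called without DMSO replicate 1 (FDR = 0.0968), DMSO replicate 2 (FDR = 0.202) or GSI replicate 1 (FDR = 0.115). Each call thus held in 1 of 4 fits with a library left out. The direction stayed the same in every left-out fit, from 0.16 to 0.25 for Gbp8 and from -0.21 to -0.17 for Gbp9. Gbp4, which shares the locus and is known to restrain signalling through IRF7, was at 1857 and 2083 CPM with DMSO and at 1978 and 2081 CPM with GSI. Its groups overlapped, the log2 fold change was 0.04 (-0.12 to 0.21, FDR = 0.699), and the interval of the fold change, 0.920 to 1.15, bounds what these libraries leave possible. The 3 gene models overlap, but no more than 61 exon bases of each are shared.

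Of the chromosome 3 cluster, 0 of 4 members passed the edgeR test, and 1, Gbp3, was under an unadjusted p of 0.05 and called by DESeq2. Gbp2 was at 7479 and 7508 CPM with DMSO and at 7464 and 6969 CPM with GSI. Both GSI libraries were below both DMSO libraries, GSI replicate 1 by a very small margin. The log2 fold change was -0.05 (-0.21 to 0.10, FDR = 0.600), and the interval of the fold change was 0.863 to 1.08.

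Gbp5, which promotes assembly of the NLRP3 inflammasome, was at 1765 and 1724 CPM with DMSO and at 1945 and 1697 CPM with GSI. The GSI replicates were the highest and the lowest of the 4 libraries. On the log2 scale the change was 0.06 (-0.10 to 0.23, FDR = 0.564). Gbp7, which helps to assemble the NADPH oxidase on bacterial vacuoles, was at 434 and 384 CPM with DMSO and at 473 and 397 CPM with GSI, again with overlap. Its log2 fold change was 0.09 (-0.09 to 0.27, FDR = 0.428), and it was called without GSI replicate 2 alone, at 0.21 (FDR = 0.0405).

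Gbp3 was nearest to a call. It was at 979 and 935 CPM with DMSO and at 1098 and 1061 CPM with GSI, and the groups did not overlap. This gave a log2 fold change of 0.17 (0.02 to 0.33), a 1.13-fold difference, at an FDR of 0.0635. It was called in 3 of 7 alternatives that keep all libraries (no filter on low counts, the replicate number as a block, and DESeq2) and in 0 of 4 that leave 1 out.

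**Figure D4:**
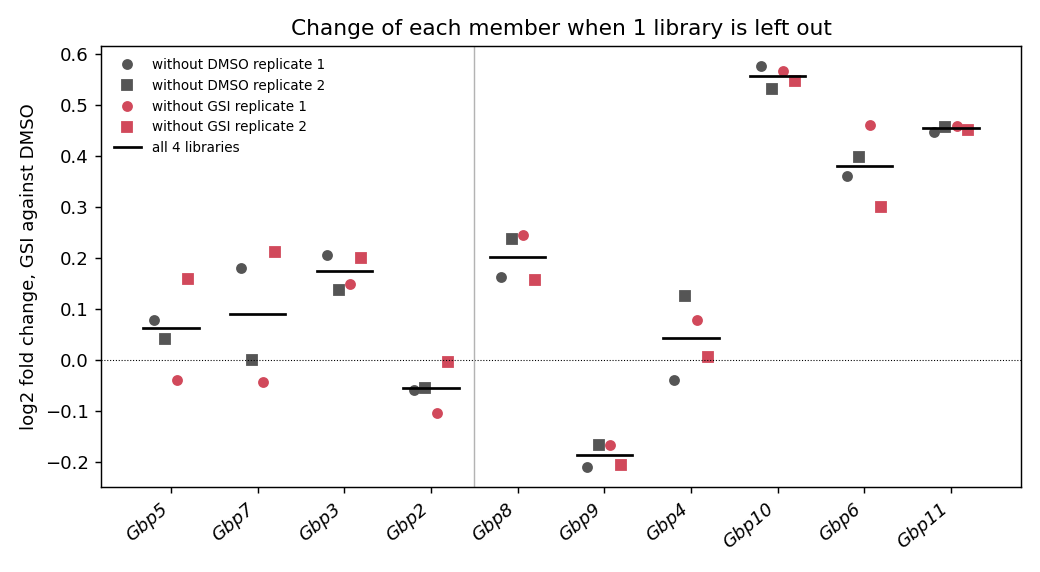
Log2 fold change of each member, GSI against DMSO, from all 4 libraries (black line) and with 1 library left out (symbols, colour and shape naming the library left out), in genome order with the chromosome 3 members left of the vertical line. The symbols of Gbp10 and Gbp11 stay near their lines, and those of Gbp4, Gbp5 and Gbp7 fall on both sides of 0.

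By cluster, the 4 chromosome 3 members had a median log2 fold change of 0.08 (-0.05 to 0.17) and the 6 chromosome 5 members one of 0.29 (-0.19 to 0.56), with 4 higher, 1 lower and 1 without a call. The difference between the clusters was not tested. Among the genes within 500 kb of the clusters, 0 of 5 tested near the chromosome 3 cluster rose and 3 fell (median log2 fold change -0.28), and 0 of 10 near the chromosome 5 cluster rose and 4 fell (median -0.29). DESeq2 also called 0 of them higher, and by edgeR 1 near chromosome 3 and 0 near chromosome 5 were higher at an unadjusted p under 0.05. Of all 13211 genes tested, 19.0% rose and 21.9% fell, and whether the neighbours differ from this was not tested. The counts include genes inside the clusters, such as Mir6381, which is described below. No neighbour passed the test in the direction of Gbp10, Gbp6 and Gbp11.

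Gbp2b was the family gene with the large change. This GTPase takes part in the defence against intracellular bacteria, as do Gbp6, Gbp7 and Gbp10. It was at 325 and 283 CPM with DMSO and at 101 and 97.0 CPM with GSI, so that the groups were far apart. Its log2 fold change was -1.62 (-1.78 to -1.45), a level 0.326-fold that with DMSO (FDR = 4.81e-12), which passed both thresholds, as 2.17% of all genes did in this direction. It lay between -1.72 and -1.51 when each library was left out. Of all genes tested, 97.6% had a smaller change, against 81.1% for Gbp10, 74.5% for Gbp11, 68.1% for Gbp6 and 12.6% for Gbp2. Gbp2b and Gbp2 stand side by side, but the counts of Gbp2b relative to those of Gbp2 went from 4.34% and 3.77% with DMSO to 1.36% and 1.39% with GSI. Of its 75-base stretches 99.1% occur in no other gene, and 0.955% of those of the far more abundant Gbp2 also occur in Gbp2b. How such reads were counted is not given in the sources used here, and their part in the counts of Gbp2b was not tested.

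The sum of the family did not separate the groups. The 10 members summed to 13464 and 13613 CPM with DMSO and to 14015 and 13336 CPM with GSI, and with Gbp2b to 13789 and 13896 and to 14117 and 13433 CPM. In both sums the GSI replicates were the highest and the lowest library. Mir6381, a microRNA gene of the opposite strand that overlaps 24 bases of Gbp2 exons, had 206 and 238 counts with DMSO and 12 and 2 with GSI (log2 fold change -4.94, FDR = 2.06e-10). With Gbp2 at 321904 counts or more in each library, and the strand setting of the counting not given, reads of these overlapping genes cannot be told apart.

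The genes whose pattern was nearest to that of Gbp2 over the 4 libraries, by the root mean square distance of centred log2 CPM among 7570 genes with at least 10 CPM, were Rab35 (0.00450), Atic (0.00708) and Arf6 (0.00778). With 4 libraries and a nearly flat Gbp2 this names genes that were as flat, and nothing of their function follows from it.

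The pathway that induces the family was measured in the same libraries. Of the genes of IFNγ signalling, 19 of 20 were tested, 3 rose and 7 fell, with a median log2 fold change of -0.01. The ligand Ifng had 0 counts in all libraries, while the cytokine itself was added to the culture. Ifngr1, the chain that binds it, was at 202 and 189 CPM with DMSO and at 124 and 131 CPM with GSI (log2 fold change -0.62, FDR = 6.97e-07). Both GSI libraries were thus well below the DMSO libraries, while the signalling chain Ifngr2 was at 157 and 154 and at 162 and 148 CPM and did not pass (FDR = 0.956). Of the receptor kinases, Jak2 fell by 0.52 on the log2 scale (FDR = 4.24e-06) and Jak1 fell by 0.20 (FDR = 0.0266).

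Of the interferon regulatory factors in the lists, Irf1, Irf8 and Irf9 did not pass the test, and Irf2 and Irf7, named after their values were seen, did. Irf1 was at 2605 and 2720 CPM with DMSO and at 2945 and 2872 CPM with GSI (log2 fold change 0.13, FDR = 0.179), higher in both GSI libraries but without a call. Irf8 (-0.16, FDR = 0.0952) and Irf9 (0.14, FDR = 0.105) lay on either side of 0. Irf2, a repressor of interferon-responsive promoters, was at 133 and 124 CPM with DMSO and at 108 and 85.1 CPM with GSI, and fell by 0.41 on the log2 scale (FDR = 9.17e-04). Irf7, which drives type I interferon genes, rose by 0.62 (FDR = 9.62e-07). Socs1, the feedback inhibitor of the receptor kinases, rose from 39.0 and 43.2 to 58.7 and 54.5 CPM (0.46, FDR = 7.46e-05). These are mRNA levels and say nothing of the activity of the proteins.

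Immunity-related GTPases and other dynamin-like GTPases, not all of them interferon-induced, were compared with the family. Of the immunity-related GTPases, which load onto the same vacuoles as the guanylate-binding proteins, 12 of 13 were tested, 5 rose and 0 fell by the edgeR test, with a median log2 fold change of 0.18. At an unadjusted p under 0.05, and by DESeq2, 0 were lower as well. The largest increases among them were those of Tgtp1 (0.74), Gm4841 (0.61) and Gm12250 (0.36). Of 7 other dynamin-like GTPases, 2 rose and 4 fell with a median of -0.20. They included the antiviral Mx2, which rose by 0.78, and the very large GTPases Gm4070 and Gvin1, which fell by 0.47 and 0.41. The atlastins Atl1, Atl2 and Atl3 were in this list as well. Atl2 fell by 0.27 and Atl3 by 0.20, and Atl1 did not pass.

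Further targets of IFNγ in macrophages were measured beside the family. Of 31 tested, 19 rose and 2 fell, with a median log2 fold change of 0.21. They included Nos2, the inducible nitric oxide synthase, which went from 23.8 and 25.9 CPM to 250.2 and 240.4 CPM (log2 fold change 3.30), Ido1, which degrades tryptophan (1.41), and the chemokine Cxcl9 (1.35). Of 25 genes stimulated by type I interferon, 22 rose and 0 fell, with a median of 0.49, and by DESeq2 or at an unadjusted p under 0.05 in edgeR 0 were lower. Among these were Isg20, an exonuclease (1.69), the cytokine Ifnb1 itself (1.23) and Bst2, which tethers budding virus (0.80). The members' median of 0.13 was below that of both lists, a difference that was not tested.

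Genes that act with the proteins were taken from lists as well. Of 14 genes of vacuole targeting and ubiquitin-like conjugation, 6 rose and 0 fell (median 0.18), among them Gabarap (0.43), Map1lc3a (0.42) and Atg16l1 (0.38), all of the machinery that directs the GTPases to vacuoles. Again 0 were lower by DESeq2 or at an unadjusted p under 0.05. Of 6 genes of prenylation, 1 fell, Pggt1b, the catalytic chain of the transferase that puts a geranylgeranyl lipid on proteins (-0.44, FDR = 1.00e-03), and 0 rose by edgeR or DESeq2, with 1 higher at an unadjusted p under 0.05. Of 12 inflammasome genes, 3 rose and 3 fell (median 0.06). These included Il1b, the cytokine that inflammasomes mature, which fell by 1.71 on the log2 scale, the membrane-rupture protein Ninj1 (0.80) and Nlrp3, which fell by 0.58. Of 8 Notch receptor and target genes only Notch1 was tested, at 48.7 and 45.0 CPM with DMSO and 30.3 and 29.9 CPM with GSI (log2 fold change -0.64, FDR = 1.25e-06). The classical targets Hes1 and Hey1 were at or below 0.116 CPM in each library, so that in these libraries they give no check of the block. The paper reports that cleaved Notch1 was absent with GSI by Western blot and that Hes1 fell by qPCR.

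**Figure D5:**
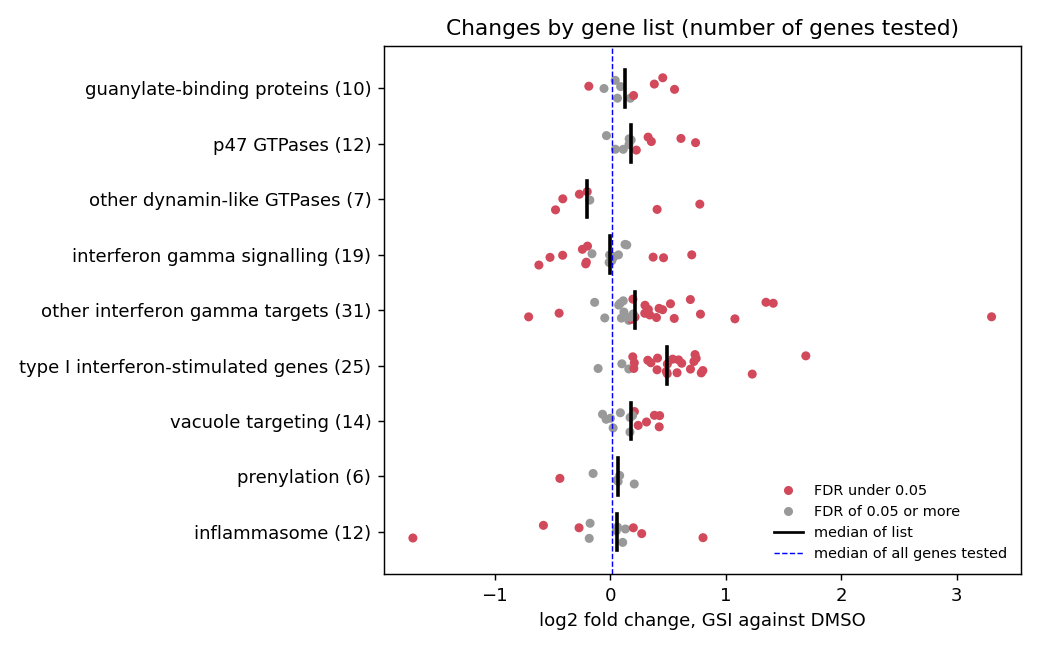
Log2 fold changes, GSI against DMSO, of the genes of 9 lists, with the number tested in brackets; each point is a gene, red with an FDR under 0.05 and grey without, black bars are list medians and the dashed line is the median of all genes tested (0.01). The guanylate-binding proteins spread from -0.19 to 0.56 around a median of 0.13, and the genes stimulated by type I interferon lie further to the right with a median of 0.49.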

How the data were processed

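The authors made stranded poly(A) libraries, sequenced them on an Illumina NextSeq 500, trimmed with Trimmomatic, aligned with STAR (2.5.0a in the submitters' processing notes) to mm10 (the notes also name mm9) and assigned the reads to genes with HTSeq. Their table was deposited as raw counts by gene and column, not normalized. The HTSeq mode and strand setting are not given in the sources used here. The last number of a column title was taken as a run, and 4 columns were summed per replicate, with 42694655 to 56932059 counts per library.

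The test was edgeR 4.0.16 (R 4.3.3): filterByExpr, TMM, glmQLFit and glmQLFTest with group as the only factor, Benjamini-Hochberg adjustment over 13211 genes, FDR under 0.05. Intervals are 95% intervals of the log2 fold change. The code was tested on simulated data. Alternatives were DESeq2 1.42.0, RLE or no factors, no filter, at least 10 counts in every library, protein-coding genes only, the replicate number as a block, a log2 fold change threshold of 1.5 and leaving out each library.

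Members, lists and tests were chosen with earlier results of these data known. Named were all family genes, fixed genes of IFNγ signalling (1 of them is not reported here), up to 3 genes per other list with the largest change among those called with a mean of at least 1 CPM, and the 3 genes nearest in pattern to the most abundant member. Mir6381, Irf2, Irf7, the atlastins and Notch target genes near the floor were named after their values were seen. Positions came from GENCODE M21 on GRCm38, which held 98.77% of the IDs, and promoters from RefSeq.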

Additional observations from a re-analysis of the deposited data

How the results depend on the processing

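Between 3 and 5 members rose under the 7 alternatives that keep all libraries, and 3 to 4 when 1 library was left out. The count that fell was 0 without a filter on low counts (Gbp9, FDR = 0.0570) and 0 to 1 when a library was left out, in which case the lone library was assumed to vary like the other group. With the threshold of 1.5 on the log2 fold change added, 0 members rose and 0 fell, of all genes 98 rose and 287 fell, and of the genes in the pathway lists, 60 and 18 in the main test, 2 rose and 1 fell. Leaving out a library gave 1820 to 2265 genes higher and 2342 to 2713 lower, and 49 to 59 and 11 to 16 in the pathway lists. The log2 fold change of Gbp7 reversed to -8.34e-04 without DMSO replicate 2 and to -0.043 without GSI replicate 1 (range -0.043 to 0.21), that of Gbp4 to -0.039 without DMSO replicate 1 (range -0.039 to 0.12) and that of Gbp5 to -0.039 without GSI replicate 1 (range -0.039 to 0.16), all 3 without a call in the main test. The cause was not tested. Gbp11 has no value in the fit of protein-coding genes. DESeq2 called 4222 genes in place of 5392. The members with under 100 CPM, Gbp10 and Gbp11, still had at least 1149 counts in each library.

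The replicate numbers are shared by the groups, but the labels do not say that they pair the samples. With 2 pairs, the deviations of same-numbered replicates had a correlation of 0.249 across 7581 genes, which are not independent. With the replicate block, 5 members rose, Gbp3 (FDR = 0.0268) beside the other 4, and 1 fell, and 6444 genes were called.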
